A study of Mus musculus with 8 samples.

Results

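The RNAs described here are small noncoding RNAs of the nucleus and nucleolus, together with the RNase P, RNase MRP, 7SK and signal recognition particle RNAs, in mouse dorsal root ganglia. They were found by name in a deposited table of 40800 gene identifiers: small nucleolar RNAs (Snora and Snord), small Cajal body RNAs (Scarna), small nuclear RNAs (Rnu), Rn7s, Rprl, Rmrp, Rpph1 and Terc. This gave 157 genes, of which 14 had a log2 CPM (reads scaled to the library total, on a log2 scale) above 0 in at least 4 of the 8 samples. The 14 were chosen by that measured level, and the same filter left 15030 genes in the table as a whole. The 14 were 3 of 5 RNase P and MRP type RNAs, all 4 of the 7SK and 7SL RNAs, 4 of 9 small Cajal body RNAs, 2 of 88 C/D box and 1 of 39 H/ACA box small nucleolar RNAs.

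Dorsal root ganglia hold the cell bodies of the sensory neurons that serve the skin, muscles and viscera. Their total RNA was sequenced from 4 wild-type mice of the C57BL/6 strain and from 4 homozygous Tmem184b gene-trap mutants on a C57BL/6 background. All mice were 6 months old, and no treatment is given for either group. A gene trap is an inserted cassette that cuts the transcript short, and the labels tie this one to no single cell type. The samples are called wild types 1, 3, 4 and 8 and mutants 1, 2, 3 and 4, as labelled.

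RNase P is the RNA-based enzyme that trims the 5′ end of precursor transfer RNAs, and RNase MRP is its relative in the nucleolus, where it takes part in ribosomal RNA processing. 7SK RNA holds the elongation kinase P-TEFb in an inactive complex, and 7SL RNA is the scaffold of the signal recognition particle, which brings ribosomes to the endoplasmic reticulum. Small nucleolar RNAs guide chemical modification of ribosomal RNA, and small Cajal body RNAs guide that of spliceosomal small nuclear RNAs. Box C/D guides direct 2′-O-methylation and box H/ACA guides direct pseudouridylation. RNase P, MRP and 7SK RNAs are made by RNA polymerase III, whereas most mouse small nucleolar RNAs are cut from introns of host transcripts.

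The sequences below are those of the RNAs on which the comparison turned. They were read by transcript identifier from GENCODE M21 (build GRCm38), run 5′ to 3′ and write T for U. The first set shows the RNase P RNA and its 3 copies over their first 150 bases, because reads of the copies differed widely between libraries of one genotype. Capitals mark bases that differ from Rpph1.
Rpph1: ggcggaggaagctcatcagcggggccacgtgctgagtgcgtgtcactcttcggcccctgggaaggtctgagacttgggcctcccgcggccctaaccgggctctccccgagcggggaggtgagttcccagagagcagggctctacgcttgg
Rprl3: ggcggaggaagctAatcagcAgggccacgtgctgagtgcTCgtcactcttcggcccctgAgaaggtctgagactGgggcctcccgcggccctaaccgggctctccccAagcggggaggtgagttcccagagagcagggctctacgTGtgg
Rprl2: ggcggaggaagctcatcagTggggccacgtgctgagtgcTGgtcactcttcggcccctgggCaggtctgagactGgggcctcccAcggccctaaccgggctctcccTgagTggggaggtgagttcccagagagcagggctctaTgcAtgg
Rprl1: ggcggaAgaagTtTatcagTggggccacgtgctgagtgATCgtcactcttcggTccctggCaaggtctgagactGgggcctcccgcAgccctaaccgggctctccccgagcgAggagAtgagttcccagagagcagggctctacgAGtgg

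Rmrp and Rn7sk had the lowest adjusted p-values of the 14. Rmrp is printed whole. Rn7sk is printed for its first 300 bases, with capitals over the 241 bases that are identical in the unnamed 7SK-like gene Gm24447.
Rmrp: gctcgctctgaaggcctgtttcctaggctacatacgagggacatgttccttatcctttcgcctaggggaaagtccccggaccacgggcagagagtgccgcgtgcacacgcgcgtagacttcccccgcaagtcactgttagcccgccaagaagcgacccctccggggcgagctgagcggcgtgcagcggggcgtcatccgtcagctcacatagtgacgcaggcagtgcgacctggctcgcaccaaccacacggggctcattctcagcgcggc
Rn7sk: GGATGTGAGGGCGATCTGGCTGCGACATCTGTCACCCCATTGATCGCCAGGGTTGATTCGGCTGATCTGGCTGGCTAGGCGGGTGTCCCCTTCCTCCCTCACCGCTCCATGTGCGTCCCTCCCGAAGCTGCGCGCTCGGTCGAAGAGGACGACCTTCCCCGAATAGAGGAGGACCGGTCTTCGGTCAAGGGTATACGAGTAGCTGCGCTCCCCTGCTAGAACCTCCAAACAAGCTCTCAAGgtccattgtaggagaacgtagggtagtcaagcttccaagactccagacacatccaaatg

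The other RNAs that changed were small Cajal body RNAs. In Scarna6 and Scarna2 the capitals mark TGATGA, the usual box C, and the last CTGA, the usual box D, and Scarna2 is shown for its last 100 bases. In Scarna13 they mark the ACA box near the 3′ end.
Scarna6: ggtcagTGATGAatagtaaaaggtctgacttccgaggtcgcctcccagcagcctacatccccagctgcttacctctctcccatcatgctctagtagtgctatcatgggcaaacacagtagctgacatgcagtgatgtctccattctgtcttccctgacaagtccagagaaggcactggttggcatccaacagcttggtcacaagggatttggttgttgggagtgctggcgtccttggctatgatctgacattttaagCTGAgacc
Scarna2: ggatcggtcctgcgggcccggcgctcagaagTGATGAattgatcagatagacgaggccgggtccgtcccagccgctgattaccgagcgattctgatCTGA
Scarna13: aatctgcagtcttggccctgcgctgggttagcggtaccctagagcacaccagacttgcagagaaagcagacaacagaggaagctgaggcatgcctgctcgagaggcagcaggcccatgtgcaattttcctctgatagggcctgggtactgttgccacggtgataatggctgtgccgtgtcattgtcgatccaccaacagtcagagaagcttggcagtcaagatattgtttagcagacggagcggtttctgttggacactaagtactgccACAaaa

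The comparison was checked first on the trapped gene. Reads of Tmem184b ranged from 1086 to 1456 per wild type and from 34 to 58 per mutant, a difference of -4.64 log2 CPM (limma adjusted p = 2.57e-12), so all 8 labels held. Libraries held 6177680 to 7975562 reads in the table, so 1 read was worth 0.125 to 0.162 CPM. Of 15030 genes tested, 423 were higher and 397 lower in the mutants at an adjusted p under 0.05 with limma, which is 2.81% and 2.64%, or 5.46% in either direction, and 7.50% had every mutant above every wild type. Under median centring these counts were 204 higher and 706 lower, and with each sample's trend in GC content removed they were 226 and 738. Nothing in the labels says that the samples shared a litter, batch or sex, and the running numbers in the column headings, of unstated meaning, follow each other without a gap only among the mutants, so a batch recorded in them and genotype cannot be told apart. P-values measure only the spread between these samples.

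Markers of the cells in a ganglion were also compared, as summed CPM over fixed lists. All 8 sensory neuron markers were detected in every sample, at 10281 to 10994 in the wild types, against 10037 to 10291 in the mutants, with Avil (-0.22) and Scn10a (-0.46) lower by adjusted p. Among satellite glia markers, Glul was higher in the mutants (0.49). Of the other lists, the fibroblast marker Dcn was higher (0.60), and skeletal muscle markers summed to 2.86 to 31.4 and 9.41 to 149 with no call. Central nervous system markers summed to 28.1 to 80.1 and 42.6 to 77.5 with 1 of 5 at 0 in all samples. The part of cell makeup in the results below was not tested, and in bulk tissue more cells of a type and more RNA per cell cannot be told apart.

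Of the 14 small RNAs, 5 were higher in the mutants and 0 lower (limma, Benjamini-Hochberg over all 15030 genes), against 2.81% of all genes higher. They were Rmrp, Rn7sk, Scarna6, Scarna2 and Scarna13. Only in these 5 of the 14 did the lowest mutant lie above the highest wild type, against 7.50% of all genes. At an unadjusted p under 0.05 there were 7 of 14, against 3206 of all 15030. The difference was above 0 for 14 of 14 and for 64.4% of all genes, with medians of 0.52 and 0.07 log2 CPM. The 14 of 14 did not hold under every scaling: Snora78 was below 0 under median centring (-0.04), quantile normalization (-0.07) and removal of the GC trend, and Rn7s2 was below 0 under quantile normalization (-0.03). The median of all genes was -0.03 under median centring. The level filter used the same samples: 12 of the 14 were above 0 in all 8 samples, Rprl3 in 3 wild types and 4 mutants, and Rnu3a in 1 wild type and 4 mutants. Differences are on the moderated log2 scale, which understates changes in RNAs with few reads.

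**Figure D1:**
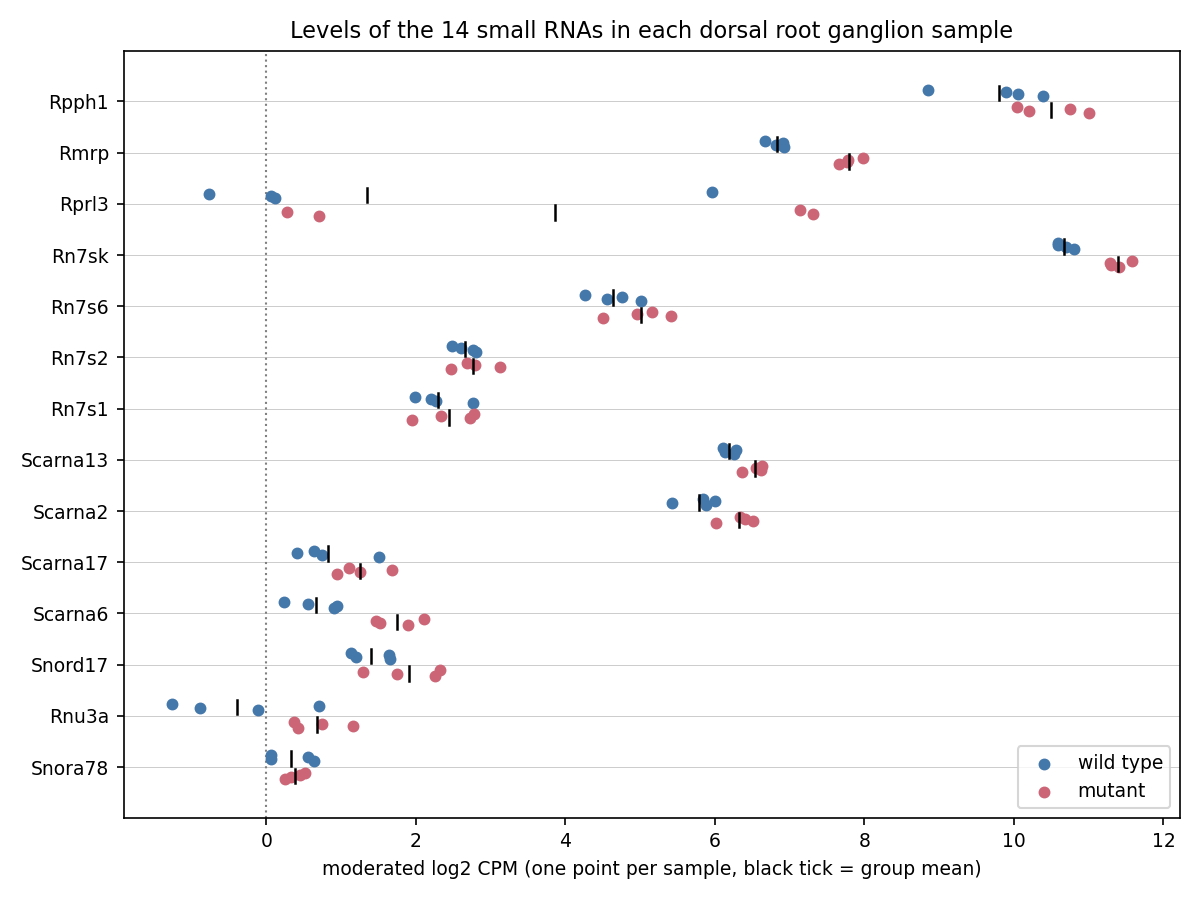
Moderated log2 CPM (x axis) of the 14 small RNAs (y axis, in order of class) in 4 wild-type (blue) and 4 mutant (red) samples, 1 point per sample, with a black tick at each group mean and a dotted line at the filter level of 0. The groups lay apart for Rmrp, Rn7sk, Scarna13, Scarna2 and Scarna6, and Rprl3 fell into values near 0 and values from 5.96 to 7.32 in both genotypes.

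**Figure D2:**
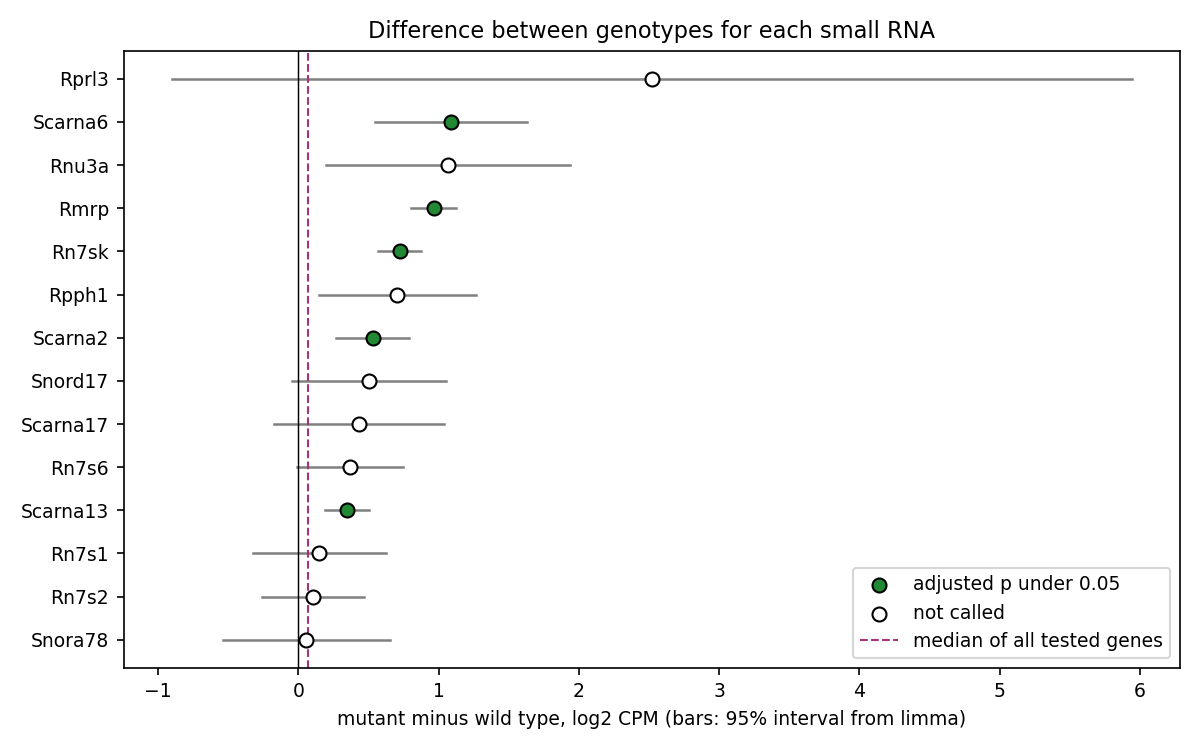
Difference in log2 CPM (x axis, mutant minus wild type) of each small RNA (y axis) with its 95% interval from limma, 4 mice a group. Filled points had an adjusted p under 0.05, and the dashed line is the median of all 15030 tested genes, 0.07.

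Rmrp (ENSMUSG00000088088), the RNA of RNase MRP, was higher in the mutants by close to 1 log2 unit. It lies at chr4:43492788-43493058 on the minus strand (GRCm38), 271 bases, and overlaps in part an exon of Ccdc107 on the other strand. In log2 CPM, wild types 1, 3, 4 and 8 stood at 6.93, 6.82, 6.91 and 6.67, and mutants 1 to 4 at 7.65, 7.76, 7.78 and 7.99. Every mutant lay above every wild type, and the values within a genotype were close together. The difference was 0.96 log2 CPM (95% interval 0.80 to 1.13, SE 0.0761, limma adjusted p = 7.11e-06), or 114 ± 9.24 and 223 ± 21.9 CPM (SD, n = 4 each), a ratio of 1.96. Rmrp was called higher under all 21 alternative settings, with adjusted p from 3.89e-07 to 0.0306. The partly overlapping Ccdc107 did not pass the test (0.02, adjusted p = 0.947).

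Rpph1 (ENSMUSG00000092837), the RNA of RNase P, did not pass the test. It lies at chr14:50807449-50807767 on the minus strand, 319 bases, and overlaps in part an exon of Ccnb1ip1 on the same strand, which had 0 to 2 reads per library. Its reads numbered 8444, 8453, 6445 and 3642 in the wild types, against 13716, 7292, 11176 and 7386 in mutants 1 to 4. In CPM these were 1341, 1059, 955 and 460, and 2049, 1179, 1721 and 1056. The groups overlapped, with wild type 8 far below the other wild types, and mutants 2 and 4 below mutants 1 and 3. The difference was 0.70 log2 CPM (SE 0.262, limma adjusted p = 0.133), and without wild type 8 it was 0.39 (adjusted p = 0.255), with adjusted p from 0.0167 to 0.766 over the alternatives.

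The same 3 libraries held nearly all reads of Rprl3 (ENSMUSG00000088025), a copy of the RNase P RNA gene at chr8:3803069-3803358 on the minus strand, 290 bases. Rprl3 had 5, 6, 2 and 490 reads in wild types 1, 3, 4 and 8 and 9, 984, 6 and 979 reads in mutants 1 to 4. Wild type 8 and mutants 2 and 4 were high and the other 5 libraries low, so both genotypes held both levels. The difference between genotypes, 2.52 log2 CPM, had an interval of -0.90 to 5.94 and did not pass the test (limma adjusted p = 0.392). Leaving out 1 library at a time moved it between 1.37, without mutant 2, and 4.06, without wild type 8, and no alternative called it (adjusted p from 0.125 to 0.965). A second copy, Rprl2, which did not pass the level filter, had 1, 0, 0 and 20 reads and 2, 27, 1 and 29 reads in the same order, high in the same 3 libraries. Rprl1 had 0 or 1 read in the wild types, against 0, 6, 3 and 6 in the mutants.

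The 3 copies together took 0.0828%, 0.0709%, 0.0465% and 12.3% of the reads of Rpph1 and its copies in wild types 1, 3, 4 and 8. In mutants 1 to 4 they took 0.0801%, 12.2%, 0.0894% and 12.1%. The share was thus close to 12% or under 0.1% with nothing between, and Rpph1 was lower in the libraries with the high share than in the others of the same genotype. With Rpph1 and the copies added together, the family stood at 1342, 1060, 955 and 524 CPM in the wild types, against 2051, 1344, 1722 and 1201 CPM in the mutants. Wild type 1 lay above mutant 4, so the family sum overlapped between genotypes as Rpph1 did. Like Rpph1, the sum was lower in wild type 8 and in mutants 2 and 4 than in the others of the same genotype. A further number in the column headings, of unstated meaning, was 6 or 7 in the 3 libraries with the high share and 1 to 5 in the others, and its part was not tested.

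**Figure D3:**
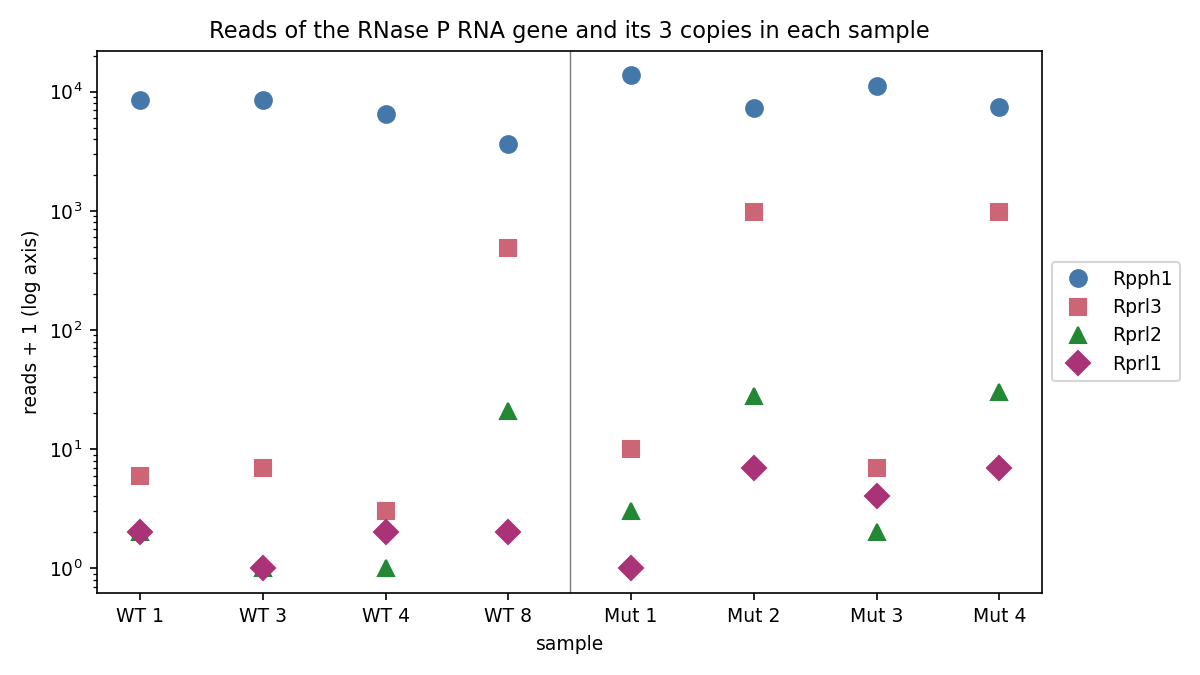
Reads plus 1 (y axis, log scale) of Rpph1 and its copies Rprl3, Rprl2 and Rprl1 in each of the 8 samples (x axis), wild types left of the line and mutants right of it. Rprl3 had 490, 984 and 979 reads in wild type 8, mutant 2 and mutant 4 and at most 9 in the other 5 libraries, and Rpph1 was lower in those 3 than in the others of the same genotype.

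The copies are near in sequence to Rpph1 at the 5′ side, as the lines above show. Over 257 aligned columns, 222 bases of Rprl3 were identical to Rpph1 (86.4%), with 14 mismatches and 21 gap columns, and the longest shared run was 37 bases. Rprl2 was identical at 86.0% of the same columns and Rprl1 at 84.0%. The copies were nearer to each other, 92.1% for Rprl3 with either Rprl2 or Rprl1 over 290 bases. Rprl3 and Rprl2 shared their last 56 bases, which lie beyond the part aligned to Rpph1 but for its end, and the last 61 bases of Rprl3 are shown here to set that tail beside the start above.
Rprl3 tail: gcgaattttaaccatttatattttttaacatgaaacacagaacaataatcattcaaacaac
A read of 150 bases, the stated read length, is longer than the longest run that Rprl3 shares with Rpph1. How reads that fit both were divided between these genes is not given in the sources used here, so the values of Rpph1 and each copy are uncertain beside their sum.

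Rn7sk (ENSMUSG00000065037), the 7SK RNA, had the most reads of the 14 and was higher in the mutants. It lies at chr9:78175303-78175633 on the minus strand, 331 bases, outside any other annotated gene of its strand. Its reads numbered 11240, 13272, 10401 and 12220 in the wild types, against 18118, 15557, 16260 and 21354 in the mutants. In log2 CPM these were 10.80, 10.70, 10.59 and 10.59, and 11.40, 11.30, 11.29 and 11.58. No wild type reached the lowest mutant. The difference was 0.72 log2 CPM (95% interval 0.56 to 0.88, SE 0.0729, limma adjusted p = 7.00e-05), or 1633 ± 116 and 2695 ± 257 CPM (SD, n = 4 each), a ratio of 1.65. It was called under 20 of 21 alternative settings, with adjusted p from 4.94e-06 to 0.0727, the last in the fit with no filter on low values.

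The table also held 7SK-like genes outside the name rule, 17 of them tested and recognised by their similarity to Rn7sk. Of these, 4 were higher and 0 lower, against 2.81% of all genes higher: Gm24146 (0.73), Gm26035 (0.67), Gm23973 (0.66) and Gm25844 (0.99). Gm26035, for example, had 195 to 215 reads in the wild types, against 255 to 348 in the mutants, and it matched Rn7sk at 95.7% over 233 bases. Gm24447, whose capitals are marked above, was identical to Rn7sk over 241 bases and had 5 to 12 and 7 to 20 reads (0.73, limma adjusted p = 0.199). Where such genes are near copies, reads of Rn7sk and of these loci are uncertain one by one. Not all of the 17 were so near, and Gm26407 matched Rn7sk at 83.6% over only 55 bases.

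The 7SL RNAs did not pass the test. Rn7s1 and Rn7s2, at chr12:69159295-69159594 on the plus strand and chr12:69361182-69361481 on the minus strand, are identical over all 300 bases, so their reads cannot be told apart by sequence. Rn7s6, at chr6:69516339-69516629 on the plus strand, matched both at 98.6% over 214 bases with 3 mismatches. Rn7s6 had 201, 185, 180 and 149 reads in the wild types, against 150, 262, 200 and 248 in the mutants (0.37, 95% interval -0.01 to 0.74, limma adjusted p = 0.249). Its groups overlapped, mutant 1 being level with the lowest wild type in reads. Rn7s1 had 29 to 41 and 24 to 46 reads (0.15, interval -0.33 to 0.62, adjusted p = 0.757), and Rn7s2 had 39 to 52 and 35 to 52 (0.10, interval -0.26 to 0.47, adjusted p = 0.777). Of 10 7SL-like genes outside the name rule, 0 were called in either direction, against 5.46% of all genes. At an unadjusted p under 0.05 there were 2 of the 10, against 3206 of all 15030 genes.

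Small Cajal body RNAs gave 3 of the 5 calls. Scarna13 (ENSMUSG00000088789), of the H/ACA kind, lies at chr12:105031075-105031349 on the minus strand in an intron of Snhg10. No values were found under the GENCODE identifier of Snhg10. The level of Scarna13 is given next. Its level was 6.25, 6.13, 6.28 and 6.11 log2 CPM in the wild types by number. In mutants 1 to 4 it was 6.36, 6.62, 6.55 and 6.63, so that the groups lay apart by a small gap at mutant 1. The difference was 0.35 (95% interval 0.19 to 0.50, SE 0.0726, limma adjusted p = 0.0133), a ratio of 1.28 in CPM. It was called under 17 of 21 alternative settings (adjusted p from 0.00840 to 0.194).

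Scarna2 (ENSMUSG00000088185) lies at chr3:108554338-108554751 on the minus strand, 414 bases, the longest of the 14. Its level was 5.89, 5.43, 6.00 and 5.84 log2 CPM in the wild types, against 6.01, 6.52, 6.41 and 6.34 in the mutants. The groups lay apart, but only just, between wild type 4 and mutant 1. The difference was 0.53 (95% interval 0.27 to 0.79, SE 0.121, limma adjusted p = 0.0201), from 55.6 ± 9.01 to 80.2 ± 11.6 CPM (SD, n = 4 each). Without wild type 3 the adjusted p was 0.0502, and without mutant 2 it was 0.0630. Scarna2 was called under 15 of 21 settings (adjusted p from 0.00970 to 0.357).

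Scarna6 (ENSMUSG00000089281) lies at chr1:87784556-87784820 on the plus strand in an intron of Atg16l1, an autophagy gene. It had few reads: 10, 13, 8 and 7 in the wild types, against 23, 16, 16 and 28 in the mutants. Every mutant was above every wild type. The difference was 1.09 log2 CPM (95% interval 0.55 to 1.63, SE 0.253, limma adjusted p = 0.0221), and its host Atg16l1 differed by 0.02 (adjusted p = 0.926). Without wild type 8, mutant 1 or mutant 4 the adjusted p of Scarna6 was 0.0554, 0.0672 and 0.0797, and it was called under 13 of 21 settings (0.0161 to 0.194).

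The fourth small Cajal body RNA that passed the filter, Scarna17, had 16, 11, 7 and 10 reads in the wild types, against 11, 13, 19 and 13 in the mutants, and its groups overlapped (0.43, 95% interval -0.18 to 1.03, limma adjusted p = 0.412). Of 4 further small Cajal body RNAs known only by Gm symbols, 3 were higher: Gm22009 (0.64, adjusted p = 0.000977), Gm22442 (0.50, adjusted p = 0.0425) and Gm25395 (1.03, adjusted p just under 0.05, groups overlapping). Gm22009 had 285 to 310 reads in the wild types, against 425 to 427 in the mutants, a narrow spread in both. Of 3 such small nuclear RNAs, 1 was higher, Gm24265 (1.36, limma adjusted p = 0.0272). Of 8 genes labelled as small nucleolar RNAs outside the name rule, 0 were higher. At an unadjusted p under 0.05 there were 2 of these 8, against 3206 of all 15030 genes. The 8 include Snhg7, which is not a Gm symbol and matched Snora43 at 100% over 127 bases. Snhg7 is also counted among the host transcripts below. In all, 43 small RNAs outside the name rule were tested, of which 8 were higher and 0 lower, with a median difference of 0.44. Among all genes, 2.81% were higher and the median difference was 0.07.

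None of the 3 small nucleolar RNAs that passed the filter passed the test, and all had few reads. Snord17, a box C/D RNA in an intron of Snx5 at chr2:144265979-144266216 (minus strand), had 18, 16, 19 and 15 reads in the wild types, against 30, 19, 14 and 33 in the mutants (0.50, interval -0.05 to 1.05, limma adjusted p = 0.283). Its groups overlapped at mutant 3, and its host Snx5 differed by 0.24 (adjusted p = 0.160). Rnu3a, a U3 RNA of the box C/D family that takes part in cutting the ribosomal RNA precursor, lies at chr10:40258467-40258680 on the plus strand. It had 4, 2, 9 and 1 reads in the wild types, against 7, 12, 9 and 7 in the mutants (1.06, interval 0.19 to 1.93, adjusted p = 0.144). Only wild type 4 reached the mutants, and without it the difference was 1.43 (adjusted p = 0.0392, with a range of 0.0392 to 0.684 over the alternatives). Snora78, a box H/ACA RNA at chr17:24719676-24719803 (minus strand) in an intron of Snhg9 and opposite Rps2, had 6 to 8 reads in every library (0.06, interval -0.54 to 0.65, adjusted p = 0.936). Rps2 itself, a ribosomal protein gene, was lower in the mutants (-0.68, adjusted p = 0.0178), while Snhg9 had 1 to 6 reads.

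Levels were compared between RNAs per kilobase of transcript. In the wild types Rn7sk stood at 4933 ± 350 CPM per kilobase and Rpph1 at 2989 ± 1151 (SD, n = 4), followed by Rmrp at 420 ± 34.1, Scarna13 at 265 ± 15.7 and Scarna2 at 134 ± 21.8. Rn7s6 followed at 86.4 ± 19.0. Rprl3, at 54.9 ± 106, had no fixed place in this order, since its spread ran past its mean. Rn7s2 (20.2), Scarna17 (19.7) and Rn7s1 (15.8) did not differ from each other beyond their spread, and neither did Snord17 (10.05) and Snora78 (7.74). Scarna6 (4.99) and Rnu3a (2.74) were lowest. In the mutants Rn7sk was at 8142 ± 775, Rpph1 at 4706 ± 1459 and Rmrp at 822 ± 80.9, with Scarna6 now at 11.8 ± 2.75. Scarna17 (79 bases) and Snora78 (128 bases) are shorter than the stated read length, so values per kilobase do not fix their places. The places of the 7SL RNAs are uncertain too, since how reads fitting several such genes were divided is not given. The 7SL-like gene Gm24105 had 219 to 393 reads in the wild types, against 29 to 41 for Rn7s1.

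Summed over every named gene of a class, the 7SK and 7SL RNAs stood at 1669 ± 122 CPM in the wild types, against 2740 ± 256 in the mutants (SD, n = 4 each), a ratio of 1.64 that Rn7sk carried. RNase P and MRP type RNAs stood at 1084 ± 347 and 1802 ± 366, a ratio of 1.66 with a wide spread in both. Small Cajal body RNAs stood at 132 ± 12.7 and 179 ± 19.4, a ratio of 1.36. Box C/D RNAs summed to only 5.85 ± 1.67 and 9.53 ± 0.541, and box H/ACA RNAs to 3.87 ± 0.341 and 4.20 ± 0.798. No test was made of these sums.

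The other 143 named RNAs lay below the filter. Of these 143, 70 had 0 reads in all 8 libraries, which allows up to 0.376 to 0.485 CPM per library (3 reads, counting error only). A further 54 had at most 1 or 2 reads in any library, and 19 reached 3 or more without passing. None of the 10 named spliceosomal small nuclear RNAs passed, and together they had 0 to 4 reads per library. U1 sequence was counted under a gene outside the name rule, Gm22513, which matched Rnu1a1 at 99.4% over all 164 bases. Gm22513 had 14, 7, 19 and 11 reads in the wild types, against 27, 17, 34 and 27 in the mutants, with overlapping groups (1.08, limma adjusted p = 0.0503). Reads of such near copies are uncertain one by one. Terc, the RNA of telomerase, had 1, 5, 4 and 1 reads in the wild types, against 3, 3, 3 and 5 in the mutants. U7, which serves histone messenger RNA processing, had 0. Just inside the filter were Rnu3a, with a 4th highest value of 0.42 log2 CPM, and Snora78, at 0.45. Just outside it were Snord91a, at -0.11, and Snora7a, at -0.18.

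Length went with detection. Of the 22 named RNAs of 200 bases or more, 12 passed and these 22 held 99.7% of the reads of all 157. Most of that share came from 2 genes: of the 207544 reads of the 22, Rn7sk had 118422 and Rpph1 66554. Terc, the longest at 423 bases, had 25 reads in all and did not pass. Of the 75 under 100 bases 1 passed, and of the 60 between 100 and 199 bases 1 passed. The median length was 282.5 bases among the 14 and 94 among the 143, and the median GC content was 57.7% and 46.5%. Only 4 of the 14 lay inside another gene of the same strand, against 125 of the 143. The part of the RNA kit and the library protocol in the few reads of short RNAs was not tested.

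**Figure D4:**
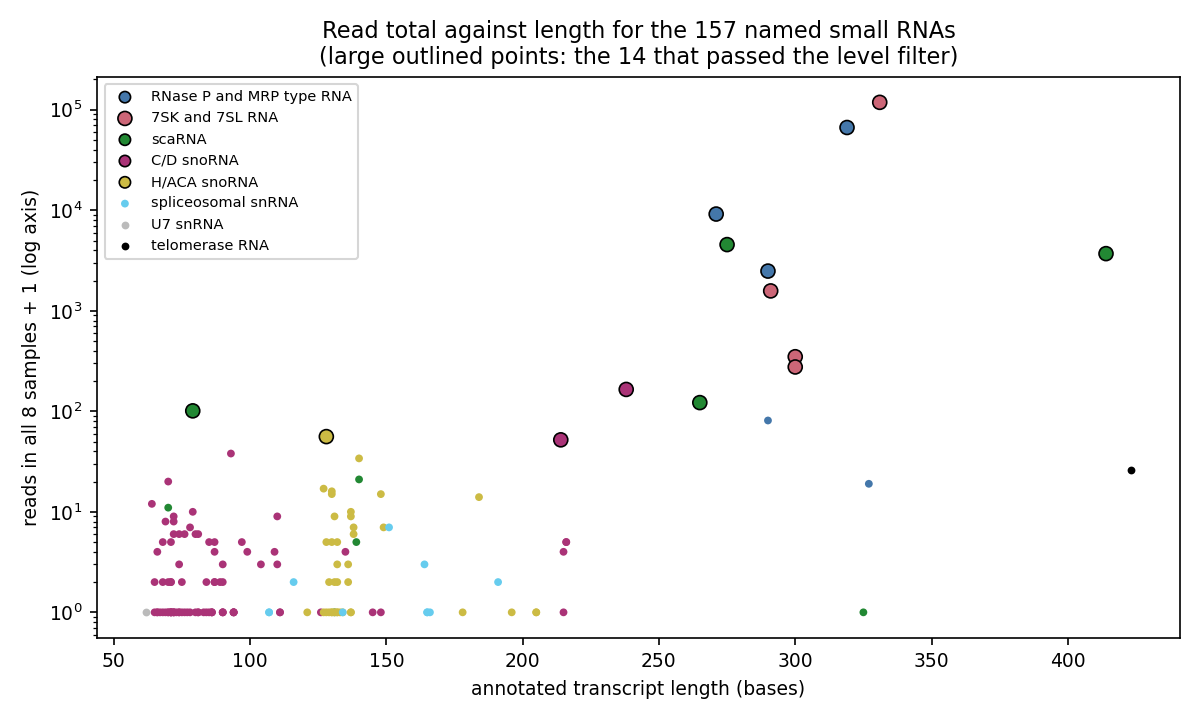
Reads over all 8 samples plus 1 (y axis, log scale) against annotated transcript length in bases (x axis) for the 157 named small RNAs, coloured by class. The 14 that passed the level filter are the large outlined points, 12 of which were 200 bases or longer.

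Most, but not all, box C/D and box H/ACA RNAs held the sequence boxes of their class, and small Cajal body RNAs held boxes of both kinds. TGATGA, read on the transcript strand anywhere in the RNA, was present in 72.7% of the 88 box C/D RNAs, 0% of the 39 box H/ACA RNAs and 66.7% of the 9 small Cajal body RNAs. CTGA in the last 15 bases was present in 93.2%, 5.13% and 55.6%, and ACA in the last 8 bases in 9.09%, 94.9% and 44.4%. The 2 motifs of the box C/D class can overlap in their TGA letters. Among the 14, Snord17, Rnu3a, Scarna2, Scarna6 and Scarna17 held both TGATGA and a CTGA within their last 15 bases, whereas Snora78 and Scarna13 held ACA in their last 8.

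The proteins that bind, make or trim these RNAs were taken from 13 lists, with the host transcripts of small nucleolar RNAs among them. Of 138 genes tested, 2 were higher and 0 lower in the mutants, or 1.45%, against 5.46% of all genes in either direction, and their median difference was 0.03. Hexim2, a partner of 7SK RNA that inhibits P-TEFb, was higher at 19 to 22 reads in the wild types, against 27 to 39 in the mutants (0.69, limma adjusted p = 0.0428). It was the only call among 7 genes of the 7SK complex, and it was lost under median centring and quantile normalization. Mirg, an imprinted noncoding transcript of microRNAs that the host list included, was higher at 182 to 274 and 266 to 321 reads (0.57, limma adjusted p = 0.0147). None of the 11 protein subunits of RNase P and MRP tested was called, and their median difference was 0.10. The same held for 22 RNA polymerase III genes (median 0.00), 4 box C/D proteins (0.09), 4 box H/ACA proteins (0.09) and 6 proteins of the signal recognition particle (-0.03). The 13 host transcripts tested, with Mirg the only call, had a higher median difference of 0.34, with 11 above 0. Over all genes the median was 0.07 and 64.4% were above 0.

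Long RNAs that stay in the nucleus were taken as a further list. Of 5 such genes, 3 were higher and 0 lower, against 2.81% of all genes higher, and each of the 3 had overlapping groups: Malat1 (0.59, limma adjusted p = 0.0410), Neat1, the scaffold of paraspeckles (0.60, adjusted p = 0.0398), and Miat (0.53, adjusted p = 0.0369). Kcnq1ot1 (0.51, adjusted p = 0.0750) and Pvt1 (0.15, adjusted p = 0.622) did not pass. The 5 summed to 3895 to 6535 CPM in the wild types, against 6446 to 10334 in the mutants, and the ranges overlapped at their ends. Whether the share of nuclear RNA in the libraries had a part in the levels of the small RNAs was not tested.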

How the data were processed

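Per the labels' protocols, total RNA came from a Qiagen micro-scale column kit and was sequenced on Illumina instruments as single reads of 150 bases. The measurements are in 1 table that the authors deposited as moderated log2 CPM, that is reads relative to library size plus a prior count before the logarithm, per the file's name and values. It also gives a deposited GC percent per gene. The submitters' processing notes name Salmon 0.11.1, DESeq2 and the genome build mm9, with no role given. The annotation, strand setting and treatment of multiply fitting reads are not given in the sources used here. Of 41422 lines, 402 identifiers were repeated with the same values and were used once. Below a shared floor of -1.79 log2 CPM no value fell, and above it 100% of values were whole reads within 0.01 read, which gave back reads and library totals.

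Mutant and wild type were compared with limma 3.58.1 in R 4.3.3 (lmFit and trended eBayes), as a two-sided test without covariates, with Benjamini-Hochberg adjustment over the 15030 genes above 0 log2 CPM in at least 4 samples and calls at an adjusted p under 0.05. The procedure was tested on simulated data. Members and lists were chosen with earlier results of these data known. Named genes were Tmem184b, every called member, the top 3 of each class, the members nearest the filter, host genes and called list genes, and the remaining members that passed were added, and 1 marker is not reported here. Coordinates and sequences are those of GENCODE M21 (GRCm38), in which 40340 of 40800 identifiers and all 157 members were found. It is not the build in the notes. Sequences were aligned with Biopython 1.88 and blastn 2.17.0, and plots used matplotlib 3.10.9. Replicate pairs differed beyond sampling noise (chi-square per degree of freedom 2.61 to 6.64). Alternatives covered filters, scalings, the variance model, each sample left out, a replicate block, the threshold and, added after the data were seen, voom on the recovered reads and removal of each sample's GC trend.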

Additional observations from a re-analysis of the deposited data

Results flagged for a closer look

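Rprl3 in wild type 8 stood far from the other wild types, at 5.96 log2 CPM against -0.77 to 0.12. Its gap to the nearest other wild type made up 0.868 of the range of the group of 4. Of 40 groups of 4 examined this was the only one marked out in this way, and about 2 would be by chance at 1 in 20. Mutants 2 and 4, at 7.32 and 7.13, stood as high, beside mutants 1 and 3 at 0.71 and 0.28.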

How the results depend on the processing

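With few reads for most of these RNAs and 4 mice a group, small differences were not detectable, and 1 library could decide a call. Of the members, 5 were higher in the mutants. The count was 1 with no filter, 2 with no mean-variance trend, and 4 to 6 when 1 library was left out. All genes gave 423 higher and 397 lower. These counts became 14 and 24 with no filter, 67 and 75 with no trend, 876 and 612 at an adjusted p under 0.1, 226 and 738 after removal of the GC trend, and 204 and 706 under median centring. Under quantile normalization 271 were higher. Leaving out 1 library gave 174 to 572 higher and 230 to 427 lower. The higher count moved by over 1.5 times on leaving out wild type 1 (174) or 3 (226), or mutant 1 (183), 2 (266) or 4 (206), and the lower count on leaving out wild type 1 (230). Voom on the recovered reads gave 5 members, and 415 and 399 of all genes. The pathway lists gave 1 higher gene in place of 2 under median centring and under quantile normalization. The cause of these shifts was not tested.

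Differences near 0 changed sign. Rn7s2 was -0.0282 under quantile normalization, and it ranged from -0.0158 (without mutant 2) to 0.203 (without mutant 1) when 1 library was left out. Snora78 was -0.0363 under median centring, -0.0733 under quantile normalization and -0.00633 after removal of the GC trend. It ranged from -0.0352 (without wild type 3) to 0.159 (without wild type 1) when 1 library was left out, and was also below 0 without wild type 8.

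Replicate numbers 1, 3 and 4 occur in both genotypes, but same-numbered samples did not deviate together (r of 0.08, 0.04 and 0.06), and not every sample correlated best with its own number. A replicate block over those 6 samples called 3 members and 326 and 345 of all genes, against 2 members, 180 and 267 in the same 6 samples with no replicate block. With or without the block, Rn7s1 was -0.0504, Rn7s2 was -0.0754 and Snora78 was -0.0143 in these 6 samples. Rpph1 was called with the block (0.49, limma adjusted p = 0.0167).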
